A study of Populus tremula x Populus alba with 12 samples.

Results

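The 73 transcripts described here were lower in 3 leaf RNA libraries of control poplars than in the other 3, a division that the sample labels do not record. Members were selected on these control levels. The low libraries were empty-vector 1, empty-vector 3 and wild-type 3; the high ones were wild-type 1, wild-type 2 and empty-vector 2. Levels are given as CPM, the count of a transcript per 1000000 counts of its library. A transcript was taken when its mean over the 6 controls was at least 5 CPM, when each low library lay below each high one, and when the mean of the low 3 was at most the mean of the high 3 divided by 3. Of 16866 transcripts in the files, 10008 reached the minimum level and 73 met the whole rule, or 0.729%. These control values chose the members, so the control levels below are a description and carry no test.

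All libraries came from mature leaves of *Populus tremula* x *Populus alba*, clone INRA 717 hybrid, propagated in vitro and grown in a greenhouse for 3 months. The 4 groups had 3 libraries each: wild-type plants, empty-vector plants, plants labelled knockout for a glycosyltransferase disrupted with CRISPR, and plants labelled only by an intermediate phenotype (called intermediate). The labels do not say which gene was edited, what drives the nuclease, or whether the libraries of a group came from separate lines or from plants of 1 line, and every p-value here reflects variation among libraries, which may be technical. Replicate numbers follow the order of the deposited records and do not link libraries of different groups.

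As background, UDP-glycosyltransferases attach sugars to small molecules, and in poplar leaves they take part in making salicinoids, the phenolic glycosides that deter herbivores. An empty-vector plant commonly is one transformed without the editing guide, and serves with wild-type as a control. Transcripts carry *Populus trichocarpa* type IDs, in which the digits before G are the chromosome, the digits after it follow the order of loci along it, and T marks a locus not placed on a chromosome. No file pairs the IDs with gene names, and no annotation or sequence was used here, so no function is given for a member and the labelled tissue was not checked against marker genes.

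Total counts ran from 5.38 to 17.3 M counts per library. The low controls held 9.77, 8.27 and 6.38 M counts and the high ones 5.45, 5.83 and 17.3 M counts. Wild-type 1 and wild-type 2 were the shallowest controls and empty-vector 2 the deepest. Whether depth had a part in the division was not tested. Over the 10008 transcripts, the median difference from the control mean was 0.14, 0.19 and 0.01 log2 units in empty-vector 1, empty-vector 3 and wild-type 3. It was −0.12, −0.11 and −0.07 in wild-type 1, wild-type 2 and empty-vector 2, so the typical transcript shifted against the direction of the members. With library sizes scaled by TMM (trimmed mean of M-values), which takes such shifts into account, the rule found 107 transcripts, among them all 73 members.

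The division reached far beyond the members. In 1399 of the 10008 transcripts (14.0%) the 3 low libraries lay below the other 3 with no overlap, and in 3429 (34.3%) they lay above. With TMM-scaled libraries these shares were 19.8% and 24.5%. The members are the transcripts of the first kind whose high mean was at least 3 times the low mean. This ratio of means does not require a wide gap between the sides. In Potri.T160400.1, for example, the lowest high-side control held 24.3 CPM (empty-vector 2) and the highest low-side control 23.2 CPM (empty-vector 3). The mirror rule found 125 (1.25%) of the second kind. Just inside the ratio limit lay Potri.013G138900.1 and Potri.001G094800.1, whose high mean was 3.041 and 3.045 times the low mean. Just outside lay Potri.006G067600.1 and Potri.005G074100.2, at 2.999 and 2.977 times.

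Members ranged in abundance from a control mean of 5.48 CPM to one of 2492 CPM, with a median of 26.0 CPM; 16 exceeded 100 CPM and 30 were under 20 CPM. The ratio of the high to the low mean ran from 3.04 to 19.2 with a median of 4.28. In RNA of whole leaves, fewer cells of a type and less RNA per cell cannot be told apart. The 6 controls did not form 2 even levels. The members' median difference from the control mean was 1.60 and 1.07 log2 units in wild-type 1 and wild-type 2. It was 0.40 in empty-vector 2 and −0.49 in wild-type 3, then −1.13 in empty-vector 3 and −1.40 in empty-vector 1. Empty-vector 2 thus lay nearer to wild-type 3 than to wild-type 1 by this median. Wild-type 1 was the highest control for 56 members and wild-type 2 for 14, while empty-vector 2 was the lowest of the high libraries for 64. On the low side wild-type 3 was the highest library for 51 members and empty-vector 3 for 20. Together the members took 2.12%, 2.92% and 0.866% of all counts in wild-type 1, wild-type 2 and empty-vector 2, and 0.257%, 0.381% and 0.398% in empty-vector 1, empty-vector 3 and wild-type 3.

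**Figure D1:**
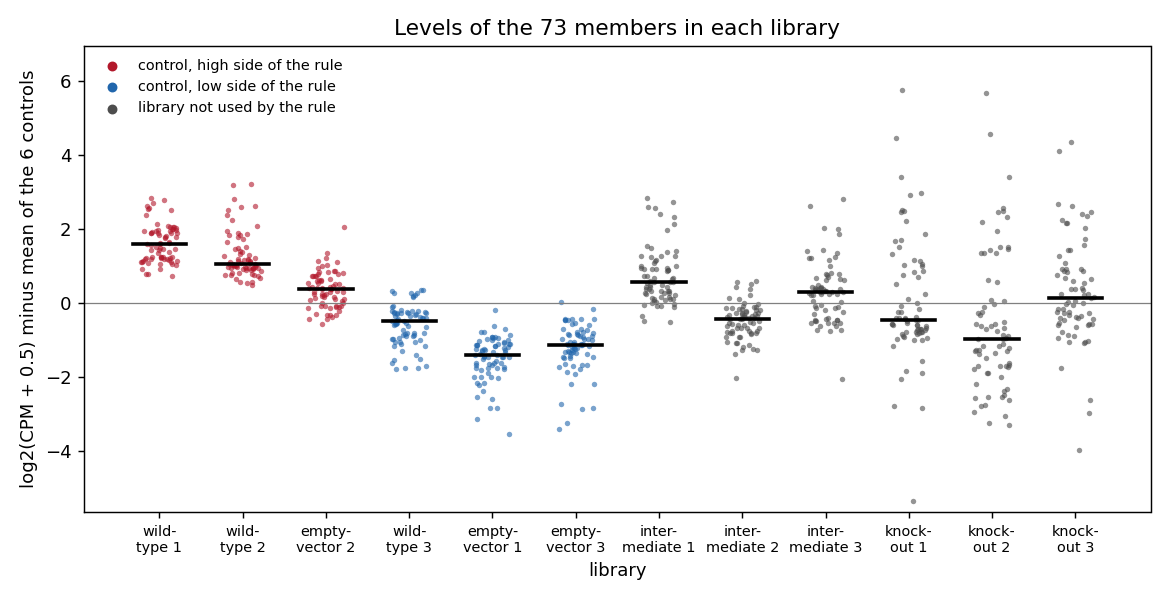
Level of each of the 73 members in the 12 libraries, as log2(CPM + 0.5) minus the member's mean over the 6 controls; each point is a member and each bar the median. Control medians fall from 1.60 in wild-type 1 to −1.40 in empty-vector 1. The rule puts the high-side controls above the low-side ones and sets no order within a side. Intermediate 2 and knockout 2 have the lowest medians of their groups, at −0.42 and −0.97.

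The largest ratio belonged to Potri.013G139200.1. Its level was 37.2 and 44.6 CPM in wild-type 1 and 2 but 9.19 CPM in empty-vector 2, against 1.72 CPM in wild-type 3, 1.33 CPM in empty-vector 1 and, in empty-vector 3, 1.69 CPM. Those low values rest on 11, 13 and 14 counts. Potri.008G214500.1 came next and was almost absent from 2 libraries, with 0 counts in empty-vector 1, which allows up to 0.307 CPM, and 1 count in empty-vector 3. It read 6.58 CPM in wild-type 3. The high controls wild-type 1, wild-type 2 and empty-vector 2 held 21.3, 32.9 and 23.8 CPM. Wild-type 3 thus stood between the empty-vector libraries of its side and the high controls for this transcript. The same held for Potri.001G331700.1, at 0.716 and 0.967 CPM for empty-vector 1 and 3, 12.5 CPM for wild-type 3, and 61.3, 45.5 and 23.2 CPM in wild-type 1, wild-type 2 and empty-vector 2.

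Members lay on all 19 numbered chromosomes, with 65 placed and 8 on unplaced loci, and each came from a different locus. Chromosome 13 held the most, 9 members or 12.3%, against 4.43% of the 10008 transcripts; unplaced loci held 11.0% against 2.70%. Another member lay within 20 locus numbers for 23 of the 73 (31.5%), and another mirror transcript for 27 of the 125 mirror transcripts (21.6%). Both sets were chosen on control values and they differ in size, so these shares are a description. No such share was computed over the 10008 transcripts. Order on unplaced loci need not mean physical proximity, since they can sit on separate scaffolds. The longest stretch was on chromosome 13, with 7 members from Potri.013G138900.1 to Potri.013G141800.1. Then came 5 unplaced members from Potri.T005700.1 to Potri.T007600.1 and 3 on chromosome 11 from Potri.011G074100.1 to Potri.011G075000.1.

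The chromosome 13 stretch held the most abundant member, Potri.013G139800.1, at 2277, 9906 and 315 CPM in wild-type 1 to 3, then 147, 1223 and 1082 CPM in empty-vector 1 to 3. It read 7648, 812 and 4355 CPM in intermediate 1 to 3 and 2638, 126 and 1947 CPM in knockout 1 to 3. Knockout 2 was thus the lowest of all 12 libraries for this transcript, while wild-type 2 and intermediate 1 were the highest. Its neighbour Potri.013G140100.1 read 997, 1440 and 68.8 CPM in the wild-type libraries, 45.4, 223 and 175 CPM with empty vector, 1262, 154 and 609 CPM in intermediate, and 404, 63.8 and 426 CPM in knockout. Within every group its lowest library was also the lowest for Potri.013G139800.1.

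On chromosome 11 the adjacent Potri.011G074100.1 and Potri.011G074200.1 had the same highest and the same lowest library as each other in every group. The first read 569, 2415 and 78.7 CPM in the wild-type libraries, 45.0, 294 and 237 CPM with empty vector, 1759, 200 and 973 CPM in intermediate, and 553, 42.7 and 717 CPM in knockout. The second read 1324, 3313 and 151 CPM, then 104, 445 and 350 CPM, then 2064, 319 and 1282 CPM, then 671, 94.0 and 1143 CPM in the same order of groups. With Potri.011G075000.1 and the chromosome 13 pair, these 5 transcripts made up 61.7% of all member counts in wild-type 2 and 63.6% in intermediate 1, but 6.05% in knockout 2. Their summed level was 18003 CPM in wild-type 2 and 395 CPM in knockout 2.

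A further set that ran in parallel comprised Potri.T005800.1, Potri.T006000.1 and Potri.012G062600.1, 2 unplaced loci and 1 on chromosome 12. Potri.T006000.1 read 282, 130 and 13.9 CPM in the wild-type libraries, 14.9, 32.5 and 16.9 CPM with empty vector, 76.8, 16.7 and 54.6 CPM in intermediate, and 26.8, 7.43 and 20.9 CPM in knockout. Over the 12 libraries the ratio of Potri.T005800.1 to it stayed between 0.884 and 1.52, and that of Potri.012G062600.1 to it between 0.973 and 1.45, while its own level spanned 7.43 to 282 CPM. Near-identical copies can share or lose reads, depending on counting settings that are not given. Without sequences it cannot be told whether these 3, or the adjacent chromosome 11 loci, are affected. Their separate levels are uncertain to that extent.

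**Figure D2:**
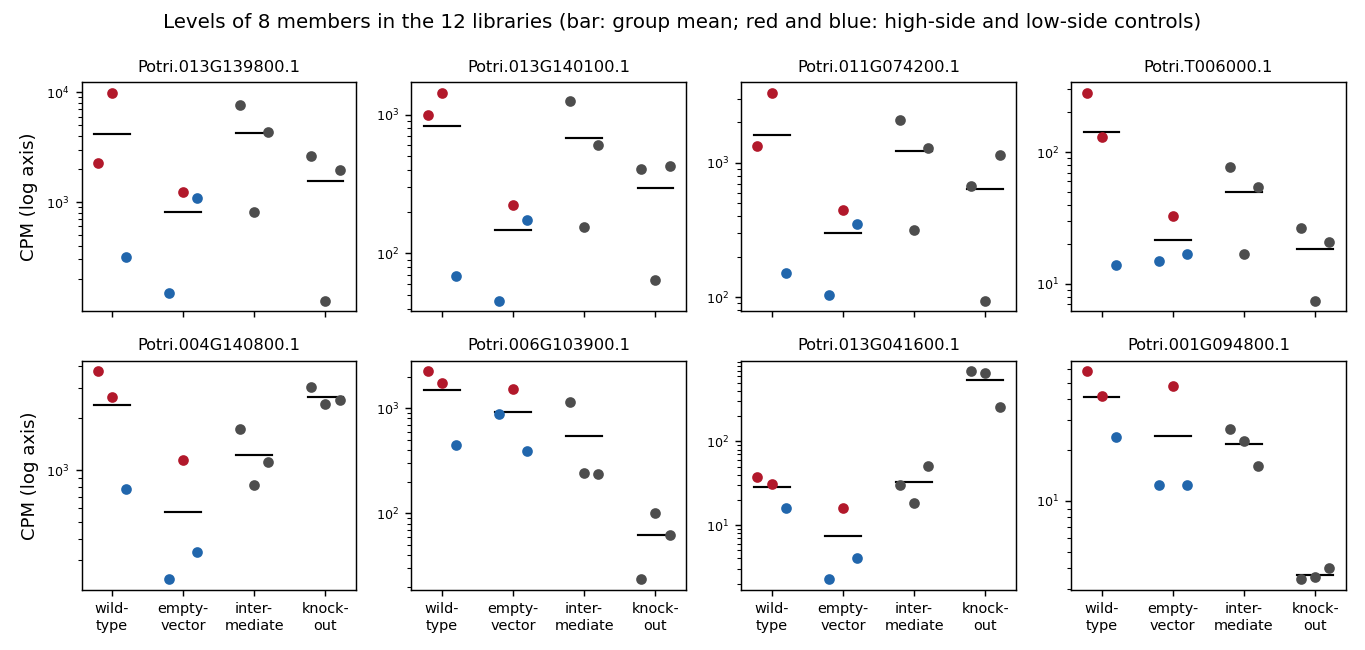
CPM (log axis) of 8 members in the 12 libraries by group; points are libraries in replicate order, bars are group means, red points are high-side and blue points low-side controls. The first 4 members share a low knockout 2 and a low intermediate 2, Potri.013G041600.1 is higher in all 3 knockout libraries (258 to 688 CPM) than elsewhere, and Potri.001G094800.1 is lower in them (3.43 to 4.02 CPM).

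The knockout and intermediate libraries played no role in the rule, and the members also varied between these libraries, mostly in a shared order. Intermediate 1 was the highest intermediate library for 56 of 73 members (76.7%) and intermediate 2 the lowest for 58 (79.5%). Among the 10008 transcripts these shares were 32.2% and 23.1%. The full order of 1, then 3, then 2 was found in 45 members (61.6%), against 14.9% of the 10008 transcripts. Intermediate 2 was at least 2-fold below intermediate 1 for 43 members (58.9%), against 2.39%. The median member was 2.33 times as high in intermediate 1 as in intermediate 2, where the median of the 10008 transcripts was 0.926 times as high.

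Position against the controls is given as description, because its limits are the control values that chose the members. It was not compared with all transcripts. In intermediate 1, 49 members were at or above their lowest high-side control and 0 at or below their highest low-side control. In intermediate 2 it was 2 and 42 members, and in intermediate 3 it was 37 and 14. The median SD of log2(CPM + 0.5) among the 3 intermediate libraries was 0.68 for members and 0.23 for the 10008 transcripts.

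In knockout, library 2 was the lowest for 49 members (67.1%, against 34.4% of the 10008 transcripts) and library 3 the highest for 42 (57.5%, against 36.6%). Knockout 2 was at least 2-fold below both other knockout libraries for 18 members (24.7%), against 1.56%. The median SD among the 3 knockout libraries was 0.43 log2 units for members and 0.22 for all 10008 transcripts. With TMM-scaled libraries the members' shares for intermediate 1, intermediate 2 and knockout 2 were 74.0%, 84.9% and 65.8%, and those of all transcripts at 5 CPM or more were 37.1%, 35.1% and 34.4%. Counting only the 50 members with no other member nearby, the shares were 74.0%, 74.0% and 64.0%. Transcripts of a library share its plant and its preparation, so these shares describe 6 libraries and carry no test.

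**Figure D3:**
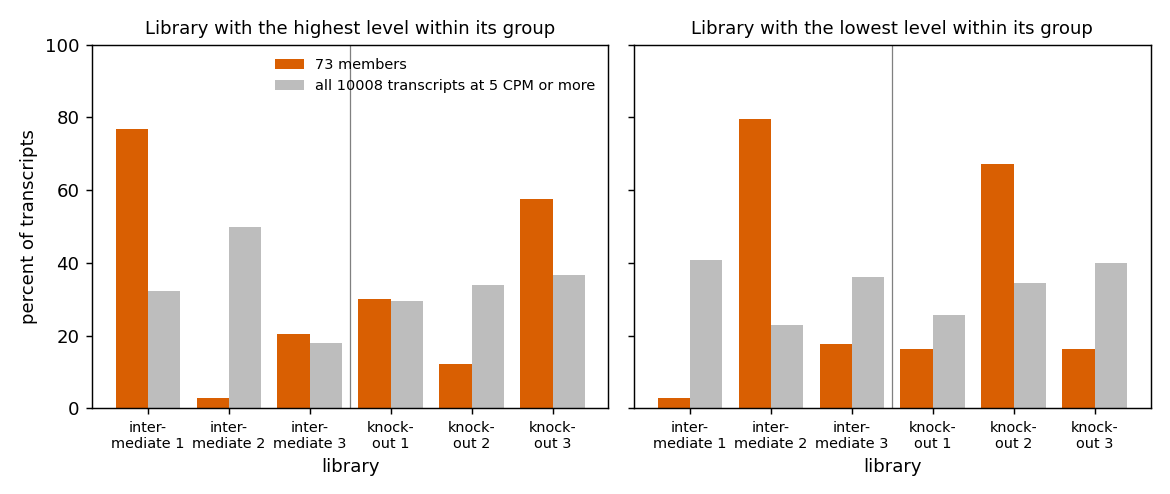
Percent of transcripts whose highest (left) or lowest (right) CPM within the group fell in each intermediate or knockout library, for the 73 members and for all 10008 transcripts with a control mean of at least 5 CPM. Intermediate 1 was highest for 76.7% and intermediate 2 lowest for 79.5% of the members, and knockout 2 lowest for 67.1%.

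The members were not a single pattern. Sorted by the highest of the low-side controls, a view chosen after the values were seen, 51 had wild-type 3 on top, 20 had empty-vector 3 and 2 had empty-vector 1. Of the 20 with empty-vector 3 on top, which include the 5 abundant chromosome 13 and 11 transcripts, 15 were at least 2-fold lower in knockout 2 than in both other knockout libraries, and 19 had the intermediate order of 1, 3, 2. Of the 51 with wild-type 3 on top, 3 were 2-fold lower in knockout 2 and 25 had that intermediate order. Over all 10008 transcripts, not sorted in this way, these shares were 1.56% and 14.9%. Another member lay within 20 locus numbers for 10 of the 20 and for 13 of the 51. Neighbouring loci may share reads, so members are not separate observations. The median of the lower of knockout 1 and 3, divided by knockout 2, was 2.86 in the 20 and 1.04 in the 51. All 13 members whose knockout libraries lay above every intermediate library were among the 51. Over the 13172 tested transcripts 23.3% did so, and nothing is read from that count.

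Potri.T063100.1 is an example of the 20. It read 102, 58.7 and 5.80 CPM in the wild-type libraries, 4.30, 11.9 and 8.70 CPM with empty vector, 26.2, 7.36 and 21.0 CPM in intermediate, and 12.0, 1.67 and 7.50 CPM in knockout. Potri.004G140800.1, the second most abundant member and 1 of the 51, differed in knockout. It read 3729, 2639 and 778 CPM in the wild-type libraries, 233, 1148 and 334 CPM with empty vector, and 1734, 818 and 1106 CPM in intermediate, but 3012, 2426 and 2531 CPM in knockout. Its knockout libraries were close together and above all 3 intermediate libraries. Potri.010G150500.1 was likewise above intermediate (597, 330 and 591 CPM) in all knockout libraries, at 728, 723 and 1568 CPM. Potri.001G095800.1 showed neither, at 1413, 454 and 541 CPM in intermediate and 649, 453 and 675 CPM in knockout.

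**Figure D4:**
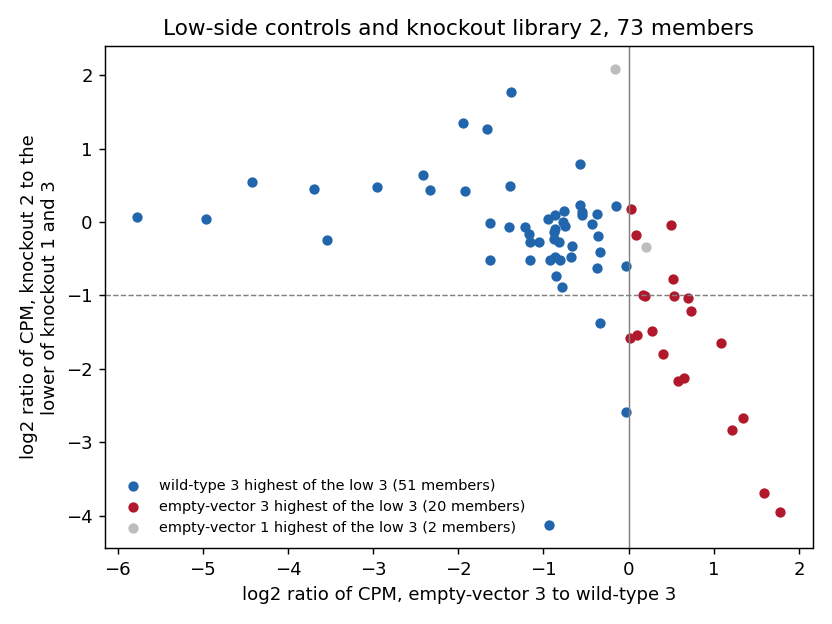
Each point is a member; the x axis is the log2 ratio of empty-vector 3 to wild-type 3 and the y axis the log2 ratio of knockout 2 to the lower of knockout 1 and 3, with the dashed line at 2-fold lower. Of the 20 members with empty-vector 3 as the highest low-side control, 15 lie on or below the line, against 3 of the 51 with wild-type 3 highest.

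Knockout was tested against intermediate with the 6 libraries of these groups alone, because the rule picks transcripts with a wide spread between controls and a shared fit would carry that spread into the members' test. All 73 members were among the 13172 transcripts tested. By the quasi-likelihood test of edgeR, adjusted over all of them (Benjamini-Hochberg) with a threshold of 0.05, 6 members were higher and 6 lower in knockout, which is 16.4% of the members where 15.3% of all transcripts passed. By direction it was 8.22% higher against 9.01%, and 8.22% lower against 6.30%. The share of members called was near that of all transcripts in this fit but not in every other. It was 6.85% against 17.4% with all 12 libraries fitted, 30.1% against 18.0% with DESeq2, 20.5% against 10.0% without intermediate 2 and 5.48% against 7.12% without knockout 1. The members' median log2 fold change was −0.60, that of all tested transcripts −0.0017. Without intermediate 1 or knockout 2 the members' median was −0.28 or −0.29, and without knockout 3 it was −0.91. Knockout and intermediate libraries did not overlap in 13 members that were higher (17.8%, against 23.3% of tested transcripts) and 11 that were lower (15.1%, against 12.7%).

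Among the members higher in knockout, Potri.013G041600.1 had the largest difference. It read 688, 656 and 258 CPM in knockout, 30.0, 18.2 and 50.3 CPM in intermediate, and between 2.25 and 38.0 CPM in the controls, so that every knockout library lay far above the other 9. It was 15.0-fold higher in knockout than in intermediate (95% interval 6.72 to 33.4), or 3.90 ± 0.50 (SE) on the log2 scale, with an edgeR adjusted p of 0.0027. Although it lies on chromosome 13, it is outside the stretch described above. Potri.015G087700.1 read 92.2, 92.6 and 38.3 CPM in knockout and 20.4, 6.69 and 13.0 CPM in intermediate, with no overlap. It was 5.16-fold higher, with a 95% interval of 2.46 to 10.8 and an edgeR adjusted p of 0.013.

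Potri.001G331700.1, nearly absent from 2 of the controls, read 240, 255 and 187 CPM in knockout and 41.7, 14.9 and 75.4 CPM in intermediate, which was 4.73-fold higher with a 95% interval of 2.12 to 10.6 and an edgeR adjusted p of 0.022. Potri.005G167300.1 read 99.4, 66.2 and 67.4 CPM in knockout against 12.1, 7.36 and 31.0 CPM, 4.19-fold higher (edgeR adjusted p = 0.026). Neither transcript overlapped between the groups. Potri.010G102900.1 read 20.8, 17.3 and 35.9 CPM against 6.64, 2.51 and 10.8 CPM, 3.37-fold higher (edgeR adjusted p = 0.048). Potri.009G107100.1 read 21.1, 21.7 and 15.6 CPM against 9.88, 3.18 and 6.31 CPM, 2.81-fold higher (edgeR adjusted p = 0.034). In these 6 of the 73 members each knockout library also exceeded all 6 controls, as it did in 11.1% of the 10008 transcripts. The controls chose the members, so nothing is read from that count.

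Among the members lower in knockout, Potri.012G091700.1 read 0.687, 1.86 and 0.543 CPM in knockout, from 4, 10 and 5 counts, and 10.9, 4.68 and 16.0 CPM in intermediate. It was 11.7-fold lower (95% interval 4.41 to 31.1), or −3.55 ± 0.61 (SE) on the log2 scale, with an edgeR adjusted p of 0.0081; without knockout 2 the log2 fold change was −4.21. The abundant Potri.006G103900.1 read 23.5, 99.99 and 61.8 CPM in knockout and 1142, 242 and 238 CPM in intermediate, 9.40-fold lower (95% interval 2.80 to 31.5; edgeR adjusted p = 0.026). Its controls read 2251, 1751 and 444 CPM in wild-type, then 873, 1519 and 396 CPM with empty vector, all above every knockout library. Intermediate 1 lay apart from the other intermediate libraries here, and leaving it out moved the log2 fold change from −3.23 to −2.03.

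Potri.001G094800.1 was even within groups, at 3.43, 3.53 and 4.02 CPM in knockout and 26.6, 22.6 and 16.1 CPM in intermediate. It was 6.20-fold lower in knockout (95% interval 4.17 to 9.24; edgeR adjusted p = 0.0011). Potri.004G121000.1 read 0.687, 0.743 and 0.978 CPM, from 4, 4 and 9 counts, against 4.09, 4.52 and 3.11 CPM, 4.88-fold lower (edgeR adjusted p = 0.0041). These 4 of the 73 members lay below all 6 controls in every knockout library, as did 15.2% of the 10008 transcripts; again the controls chose the members. Potri.016G136600.1 read 22.5, 20.4 and 36.1 CPM against 72.4, 44.5 and 65.4 CPM (2.45-fold lower; edgeR adjusted p = 0.021). Potri.012G021700.1 read 4.63, 3.53 and 4.13 CPM against 10.2, 7.02 and 6.51 CPM (2.03-fold lower; edgeR adjusted p = 0.041).

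**Figure D5:**
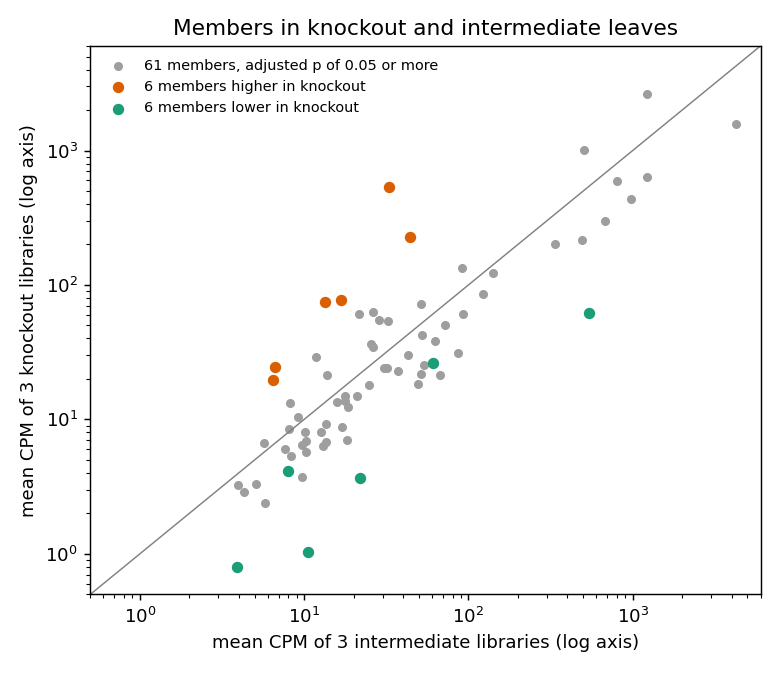
Mean CPM of each member in the 3 intermediate (x) and 3 knockout libraries (y), both on log axes, with the line of equal levels. The 6 members called higher in knockout and the 6 called lower by edgeR (adjusted p under 0.05) lie above and below the line of equal levels.

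The calls differed in how far they rested on single libraries. Those of Potri.013G041600.1, Potri.001G094800.1 and Potri.012G091700.1 held in all 12 alternatives, including each fit with 1 of the 6 libraries left out. The call of Potri.006G103900.1 was lost without knockout 1 (edgeR adjusted p = 0.082), and that of Potri.004G121000.1 when all 12 libraries were fitted together (edgeR adjusted p = 0.073). Potri.015G087700.1 lost its call without knockout 1 or intermediate 3 (edgeR adjusted p of 0.051 and 0.055). The other 6 calls were each lost in 4 to 8 of the 12 alternatives. All 6 were lost without knockout 1 and without knockout 2 (edgeR adjusted p between 0.053 and 0.12). All 6 were also lost when all 12 libraries were fitted together. Of these 6, leaving out intermediate 1 ended 5, intermediate 3 ended 3, and intermediate 2 or knockout 3 ended 2 each. Without intermediate 3, the library with their highest intermediate level, the log2 fold changes of Potri.001G331700.1, Potri.005G167300.1 and Potri.010G102900.1 rose to 2.91, 2.91 and 2.35 from 2.24, 2.07 and 1.75.

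Comparisons with the controls use the values that chose the members, so their counts are listed as description. They come from 1 fit of all 12 libraries over 14279 transcripts and share the 6 controls. In knockout against the controls edgeR called 6 members higher and 5 lower, beside 30.1% of all transcripts (17.1% higher and 13.0% lower). Potri.013G041600.1 had a log2 fold change of 5.17 and Potri.006G103900.1 one of −4.24. In intermediate against the controls edgeR called 0 members, beside 0.00700% of all transcripts. An unadjusted edgeR p under 0.05 was found for 1 member, beside 6.39% of all transcripts, and DESeq2 called 0 members, beside 0.441%. Between empty-vector and wild-type, where the rule places 2 of 3 empty-vector libraries low and 2 of 3 wild-type libraries high, edgeR called 0 members, beside 0.0420% of all transcripts (0.0350% higher and 0.00700% lower). An unadjusted edgeR p under 0.05 was found for 49 members, beside 16.9% of all transcripts, and DESeq2 called 6 members lower, beside 0.847%. Without empty-vector 2, the 1 empty-vector library on the high side, edgeR called 50 members lower in empty-vector, beside 6.33% of all transcripts. That count follows from the control values that chose the members.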

How the data were processed

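Leaf mRNA was profiled in 12 libraries. The authors deposited 1 table per library with a whole-number count for each transcript ID, not normalised as judged from the values, since column sums differ between libraries. Tools listed in the submitters' processing notes, with no role or version, were HISAT2 (a read aligner), SAMtools, Cufflinks, HTSeq (a read counter) and DESeq2. Build and strand setting are not given in the sources used. Whether related or overlapping loci share reads in these counts is therefore not known.

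CPM used column totals. A floor of 3 counts equals 0.173 to 0.558 CPM; it covers counting error only. Tests used edgeR 4.0.16 in R 4.3.3 (filterByExpr with a minimum count of 10, TMM, quasi-likelihood F test, two-sided, Benjamini-Hochberg over all tested transcripts). The test was also run on counts simulated for knockout and intermediate, with the spread typical of each level. The members' median spread was larger than that of all transcripts in both groups, so the simulation says little about them. Knockout against intermediate was fitted on 6 libraries, the other comparisons on all 12, with no covariate. SEs are the size of the log2 fold change divided by the root of F. Alternatives included DESeq2 1.42.0 and limma 3.58.1 (voom).

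Members and lists were chosen with earlier results of these data known. Named were the 8 most abundant members, the 8 with the largest ratio, up to 6 called each way and 4 transcripts at the ratio limit; others were chosen after their values were seen. Lists defined by gene descriptions could not be used, since an annotation was not used here.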

Additional observations from a re-analysis of the deposited data

Results flagged for a closer look

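Among 28 sets of 6 control values examined (27 named transcripts and the summed share of the members), 2 had a library far from the other 5. The rate of about 1 in 20 at which chance flags unselected sets does not apply, since these control values chose the members, so the values are a description. Potri.013G139800.1 read 9906 CPM in wild-type 2, with a gap to the next control that was 0.782 of the whole range of the controls. Potri.011G074100.1 read 2415 CPM in wild-type 2, with a gap of 0.779 of the range.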

How the results depend on the processing

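No paired analysis was possible because the labels give no replicate numbers shared between groups. The rule found 317 transcripts when the low mean had to be at most the high mean divided by 2, 43 when divided by 4, and 112 with a minimum of 1 CPM. With 1 control left out it found 47 to 156, the lowest without wild-type 1 and the highest without wild-type 3. In knockout against intermediate, members called higher and lower were 2 and 3 with all 12 libraries fitted (all transcripts, 1420 and 1058 of 14279), and 10 and 12 with DESeq2 (1282 and 1095 of 13172). With 1 library left out they ran from 1 to 8 and from 3 to 10, the fewest without knockout 1 and the most lower without intermediate 2 or knockout 3. All transcripts called ran from 672 to 1345 higher and from 303 to 1064 lower, between the fits without knockout 1 and without knockout 3. No log2 fold change of the 12 called members changed sign; 107 of 144 alternative values stayed past the threshold. In knockout against the controls, leaving out 1 library gave 4 to 18 members higher, the most without empty-vector 2, and 2 to 14 lower, the most without wild-type 3 and the fewest of both without knockout 1; all transcripts called ran from 1895 to 2570 higher and from 1176 to 2153 lower. In intermediate against the controls 1 transcript was called higher and 0 lower; it was 2 higher with no filter beyond 1 count, 55 higher and 8 lower with DESeq2, and 0 to 3 higher with 1 library left out, the 3 without empty-vector 2. Between empty-vector and wild-type, 5 transcripts were called higher and 1 lower. It was 3 higher with DESeq2-type size factors, 122 higher and 121 lower with DESeq2 (6 members lower), and with 1 library left out 0 to 375 higher and 0 to 927 lower, with 0 to 50 members lower, the highest of each without empty-vector 2. The share of members highest in intermediate 1 was 88.4% among those with a control mean of at least 20 CPM. It was not computed over all transcripts at that level. Why it differed from the 76.7% of all 73 members was not tested. Alternatives on the order of libraries and on TMM scaling of the separated transcripts were chosen after seeing the data. Depth limits the members with under 20 counts in a library.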
